A study of Homo sapiens with 3 samples.

Results

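Genes that carry zinc and copper into, out of and through the cell were followed in the human liver tumour cell line HepG2 after exposure to graphene nanomaterials. The genes were chosen by symbol: the SLC39A family of zinc importers, the SLC30A family of zinc exporters, 4 copper transporters and 7 copper chaperones or copper-site assembly factors, 35 symbols in all. Of these, 34 were measured among 18417 genes, and COX17 had no probe set with exactly 1 gene symbol. The series held 1 array each of cells exposed to graphene oxide (GO), cells exposed to reduced graphene oxide (rGO) and untreated cells (control). GO is a carbon sheet rich in oxygen groups, and rGO is the same material after part of that oxygen has been removed. Each exposure lasted 24 h at the material's own EC20, a dose defined by a 20% effect, at which some of the cells may be lost. Concentrations are not given in the labels, and GO and rGO may have been used at unequal doses. The values were used as the authors deposited them and were taken to be log2 expression values.

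Zinc importers of the SLC39A (ZIP) family move zinc into the cytosol, from outside the cell or out of organelles, and zinc exporters of the SLC30A (ZnT) family move it the other way. The factor MTF1 senses cytosolic zinc, binds metal response elements in promoters and switches on metallothioneins, which store zinc and copper, and the exporter gene SLC30A1. In mouse and zebrafish MTF1 is also known to repress the importer gene SLC39A10. Copper enters through SLC31A1, and small chaperones hand it on: ATOX1 to the copper pumps ATP7A and ATP7B, CCS to superoxide dismutase, and COX17 with SCO1, SCO2 and COX11 to cytochrome oxidase. The liver excretes copper into bile through ATP7B, whose loss causes Wilson disease.

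With 1 array per group there were no replicates, no test was possible and every difference between arrays stands without an error. A bulk array also cannot tell fewer cells that express a gene from less RNA per cell. Genes were therefore counted by size, at 2-fold and at 1.5-fold, and read against the same count over all genes. The 3 arrays had medians of 6.63 (GO), 6.66 (rGO) and 6.65 (control) over 33297 probe sets. Of the hepatocyte markers listed, all 10 that were measured stood above the level of 6.66, the 40th percentile of gene means, in each array. None of 5 endothelial markers did, and 2 of 5 leukocyte markers did in each array, CD68 and LYZ. Of 5 fibroblast markers, 3 did in the GO array, 2 in the rGO array and 3 in the control array. Among the members, 27 had a mean at or above 6.66, and the 7 below it (SLC39A2, SLC39A8, SLC39A12, SLC30A2, SLC30A3, SLC30A4 and SLC30A8) are weakly measured, so that background signal can hide a difference.

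Promoter windows are shown for the importer with the largest difference after GO, SLC39A10, and for 2 exporters that were lower, the MTF1 target SLC30A1 and SLC30A10. Each window runs from 250 bases before to 50 bases after a RefSeq gene start (build GRCh38.p14). Capitals mark the core of the metal response element, spelled TGCACNC or TGCGCNC and searched on both strands, where matches on the opposite strand read as the reverse complement and matches may overlap. SLC39A10 lies at chr2:195656976-195657275 on the plus strand, SLC30A1 at chr1:211579112-211579411 and SLC30A10 at chr1:219959049-219959348, both on the minus strand.
SLC39A10: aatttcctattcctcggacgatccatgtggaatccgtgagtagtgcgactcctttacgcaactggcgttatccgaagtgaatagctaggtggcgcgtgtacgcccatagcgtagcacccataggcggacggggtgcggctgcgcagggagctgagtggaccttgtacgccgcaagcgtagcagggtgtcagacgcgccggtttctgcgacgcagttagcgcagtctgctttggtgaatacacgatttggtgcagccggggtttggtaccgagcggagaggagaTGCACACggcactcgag
SLC30A1: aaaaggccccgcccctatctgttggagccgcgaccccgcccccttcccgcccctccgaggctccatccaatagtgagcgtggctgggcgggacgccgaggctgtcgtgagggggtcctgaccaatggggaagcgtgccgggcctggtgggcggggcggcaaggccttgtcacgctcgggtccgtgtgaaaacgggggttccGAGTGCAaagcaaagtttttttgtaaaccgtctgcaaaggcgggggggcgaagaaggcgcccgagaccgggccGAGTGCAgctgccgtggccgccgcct
SLC30A10: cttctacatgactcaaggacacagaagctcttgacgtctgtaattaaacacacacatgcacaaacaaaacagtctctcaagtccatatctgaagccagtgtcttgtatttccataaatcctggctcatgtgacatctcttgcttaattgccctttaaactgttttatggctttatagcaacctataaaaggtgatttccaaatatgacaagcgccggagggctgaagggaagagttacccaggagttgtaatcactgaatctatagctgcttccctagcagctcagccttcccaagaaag

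The SLC39A10 window held 1 match, which began at base 34 after the start, and the window of that gene's other RefSeq start held 0. The SLC30A1 window held 2 matches, beginning 49 bases before the start and at base 25 after it. Neither window listed for SLC30A10 held a match. Among all 35116 promoter windows of the same length, 29.6% held at least 1 match and 8.6% at least 2. Of the 43 windows listed for 29 of the 35 genes, 21 held a match (48.8%), and these windows had a median GC content of 64%, against 58.7% over all windows. Member windows on chromosome 8 were left out, so SLC39A4, SLC39A14 and SLC30A8 are not among the 29 genes. The share over all windows was not cut in this way. Several windows belong to the same gene, some overlap, and the share was not tested against GC content.

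The first comparison asked how the transport genes differed between GO-exposed and untreated cells. Zinc importers were mostly higher and zinc exporters and copper chaperones mostly lower in the GO array, by small amounts. Of 14 importers 11 were above 0, with a median difference of 0.15 on the log2 scale, and of 10 exporters 3 were above 0, with a median of -0.07. Of 4 copper transporters 3 were above 0 (median 0.06), and of 6 copper chaperones 2 were above 0 (median -0.17). Over all genes 48.7% were above 0, with a median of -0.01.

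None of the 34 members reached 2-fold in either direction after GO. Of all genes, 0.174% reached it upwards and 0.603% downwards. At 1.5-fold 1 member, SLC39A10, was higher and 0 were lower. That 1 of 34 is 2.94% of the members, beside 1.41% of all genes past 1.5-fold upwards and 2.99% downwards. A single gene gives no basis to set these shares apart.

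**Figure D1:**
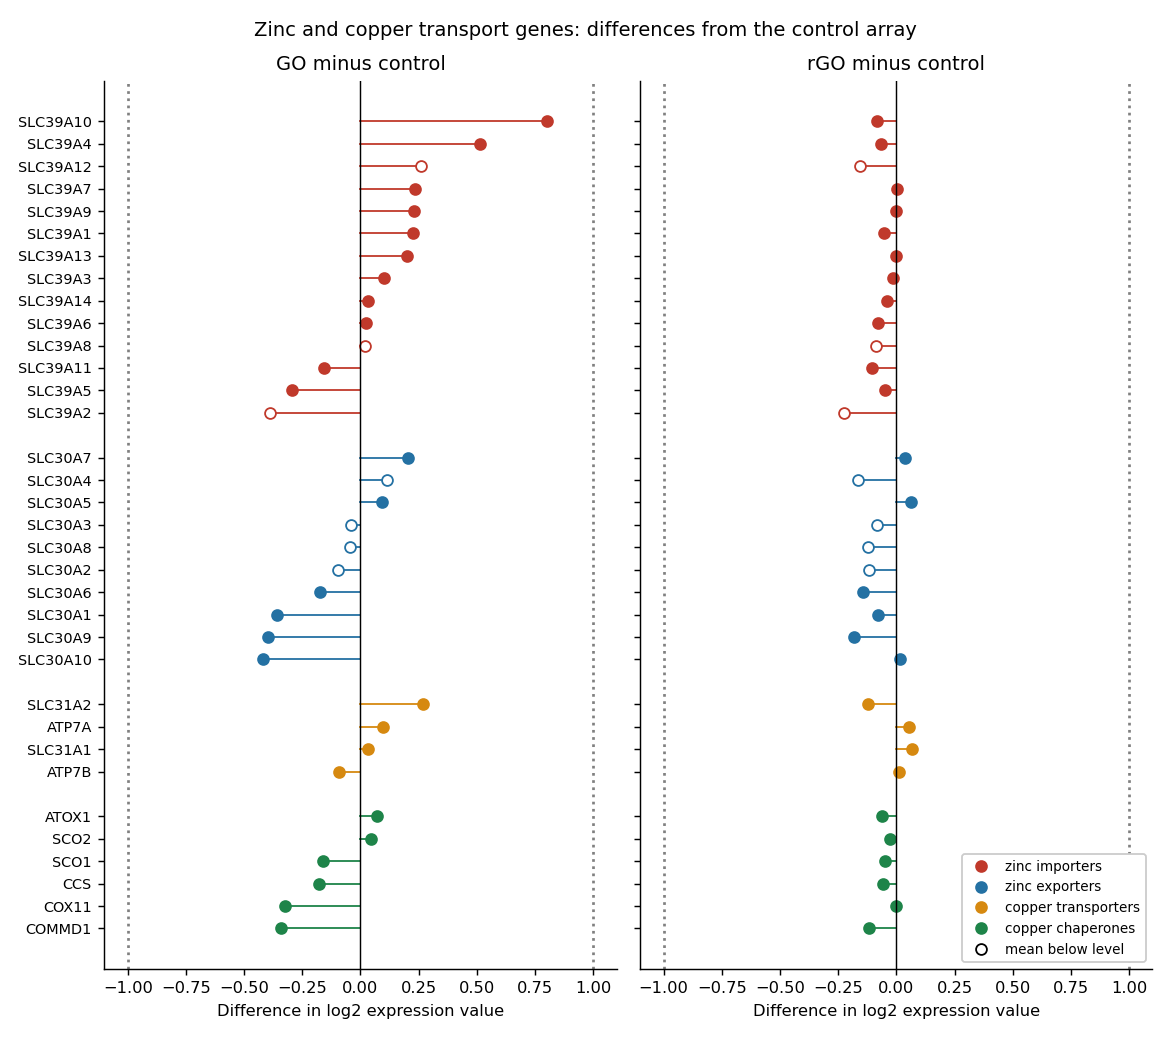
Difference in log2 expression value from the control array for each of the 34 measured members, for the GO array (left) and the rGO array (right). Filled points are genes with a mean of at least 6.66, open points genes below it, and dotted lines mark 2-fold. After GO the importers spread between -0.39 and 0.80 and the exporters between -0.42 and 0.21; after rGO all members lay between -0.23 and 0.07.

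SLC39A10, an importer of the plasma membrane, had a log2 value of 8.71 in the GO array, 7.82 in the rGO array and 7.91 in the control array. The GO array was the high one, and the rGO and control arrays lay close together. The difference of GO from control, 0.80, is 1.74-fold and was the 73rd highest of the 18417 genes. A difference of that size in either direction was met by 1.59% of all genes.

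SLC39A4, the importer of the gut whose loss causes the zinc deficiency acrodermatitis enteropathica, had 9.58 in the GO array, 8.997 in the rGO array and 9.06 in the control array. Again only the GO array was raised, with a difference from control of 0.51 (1.43-fold), the 393rd highest of all genes. SLC39A6, which pairs with SLC39A10 at the plasma membrane, did not stand apart in the GO array: it had 8.96 with GO, 8.86 with rGO and 8.94 in the control.

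A group of 4 importers was slightly higher after GO, each by 0.20 to 0.23. These were SLC39A7, which releases zinc from the endoplasmic reticulum (10.68 with GO, 10.45 with rGO and 10.45 in the control), SLC39A9 of the Golgi (0.23), SLC39A1 of the plasma membrane (0.22) and SLC39A13, which releases zinc from vesicles of the secretory pathway (0.20). Differences of at least the size of SLC39A7 were common, in 31.3% of all genes. SLC39A7 had 3 probe sets with identical values, so they are not independent readings. SLC39A3 (0.10), SLC39A14 (0.03) and SLC39A8 (0.02) lay near 0 after GO. SLC39A14 also takes up iron and manganese in the liver, and its value was 12.18 with GO, 12.10 with rGO and 12.15 in the control. SLC39A12 stood at 0.26 from values under the level (4.51 with GO, 4.09 with rGO and 4.25 in the control).

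On the lower side, SLC39A5, an importer of the basolateral membrane of gut and pancreas cells, had 10.14 in the GO array, 10.38 in the rGO array and 10.43 in the control array. Its difference after GO was -0.29. SLC39A11 stood at -0.16, and SLC39A2 at -0.39 from values under the level (4.57 with GO, 4.74 with rGO and 4.96 in the control). The importers therefore differed in sign among themselves, with 3 of 14 below 0.

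**Figure D2:**
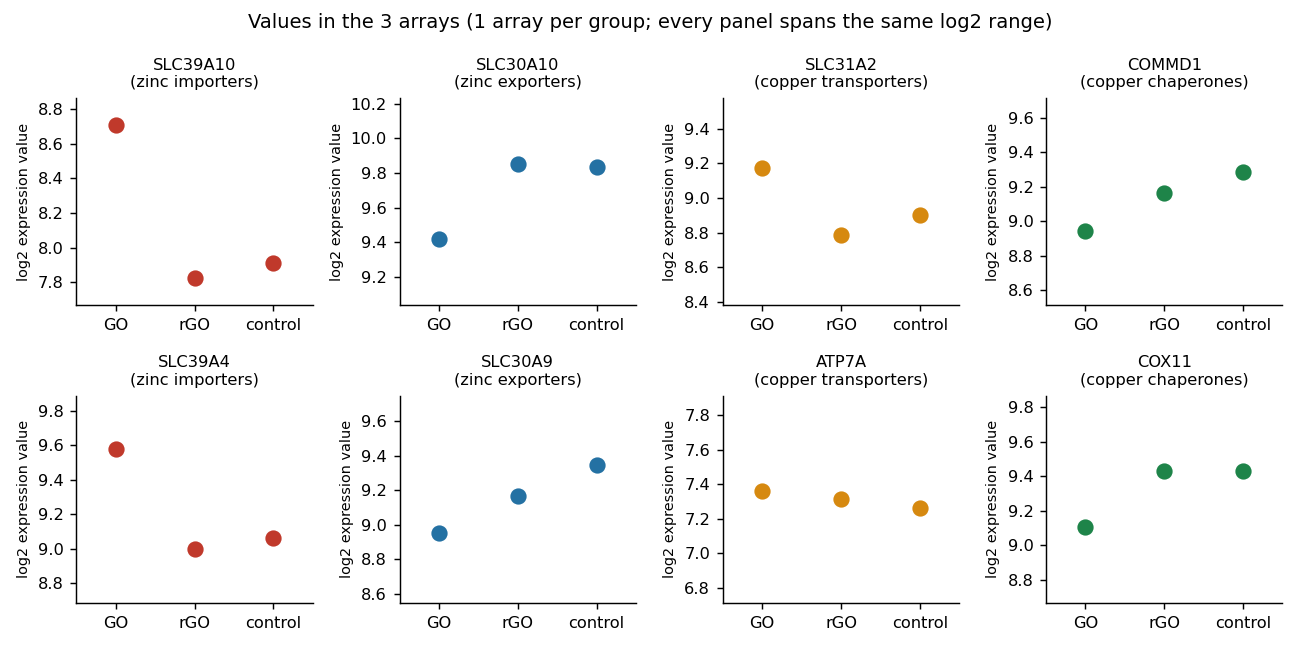
Log2 expression value in the GO, rGO and control arrays for the 2 members of each class with the largest difference after GO among those with a mean of at least 6.66. Each point is 1 array and no error can be drawn. The GO value is the highest of the 3 for SLC39A10, SLC39A4, SLC31A2 and ATP7A and the lowest for SLC30A10, SLC30A9, COMMD1 and COX11.

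Among the exporters, 3 were lower after GO by 0.36 to 0.42. SLC30A1, which expels zinc through the plasma membrane, had 9.09 in the GO array, 9.37 in the rGO array and 9.45 in the control array. The GO value was the lowest and the other values differed by 0.08, and the difference from control was -0.36 (1.28-fold lower, the 1667th lowest of all genes). SLC30A10, which in human cells mainly exports manganese, had 9.42 with GO, 9.85 with rGO and 9.84 in the control, a difference after GO of -0.42 (1.34-fold lower). SLC30A9, linked to zinc export from mitochondria, had 8.95 with GO, 9.16 with rGO and 9.35 in the control, so that both exposed arrays lay below the control. Differences as large as that of SLC30A9, -0.40, were found in 12% of all genes.

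The exporters that fill the secretory pathway with zinc differed in sign. SLC30A7, of the Golgi, stood at 0.21 after GO (10.95 with GO, 10.78 with rGO and 10.75 in the control). SLC30A5 and SLC30A6 form a heterodimer that loads zinc into enzymes such as alkaline phosphatase. SLC30A5 stood at 0.09 and SLC30A6 at -0.17. SLC30A6 had 11.07 with GO, 11.10 with rGO and 11.24 in the control, again both exposed arrays below the control. The 4 exporters under the level, SLC30A2, SLC30A3, SLC30A4 and the insulin-granule transporter SLC30A8, stood between -0.10 and 0.11. Over the 6 exporters with a mean of at least 6.66 the median after GO was -0.27, in place of -0.07 over all 10.

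Copper transport showed smaller differences after GO. SLC31A1, the high-affinity copper importer, had 11.53 in the GO array, 11.56 in the rGO array and 11.49 in the control array, and its difference after GO, 0.03, was below the spread per probe set described next. SLC31A2, a relative of SLC31A1 found on endosomes and lysosomes, had 9.17 with GO, 8.78 with rGO and 8.90 in the control, a difference after GO of 0.27. The genes lie on chromosome 9 with 1 gene, FKBP15, between them. The pumps ATP7A and ATP7B stood at 0.10 and -0.09 after GO. ATP7B had 9.51 with GO, 9.61 with rGO and 9.60 in the control.

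Pairs of probe sets for 1 gene, in 365 genes at or above the level, gave a spread per probe set of 0.08 for GO minus control and 0.05 for rGO minus control, which is the robust SD (scaled median absolute deviation) of the difference within pairs divided by the root of 2. Differences of 8 of the 34 members after GO, and of 13 after rGO, were smaller than this. It covers probe error on the same arrays and nothing of the variation between dishes. The robust SD over all genes at or above the level was 0.24 for GO and 0.12 for rGO, and it mixes dish, array and exposure. Of the members, SLC39A10 and SLC39A4 exceeded 0.50 in size after GO.

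**Figure D3:**
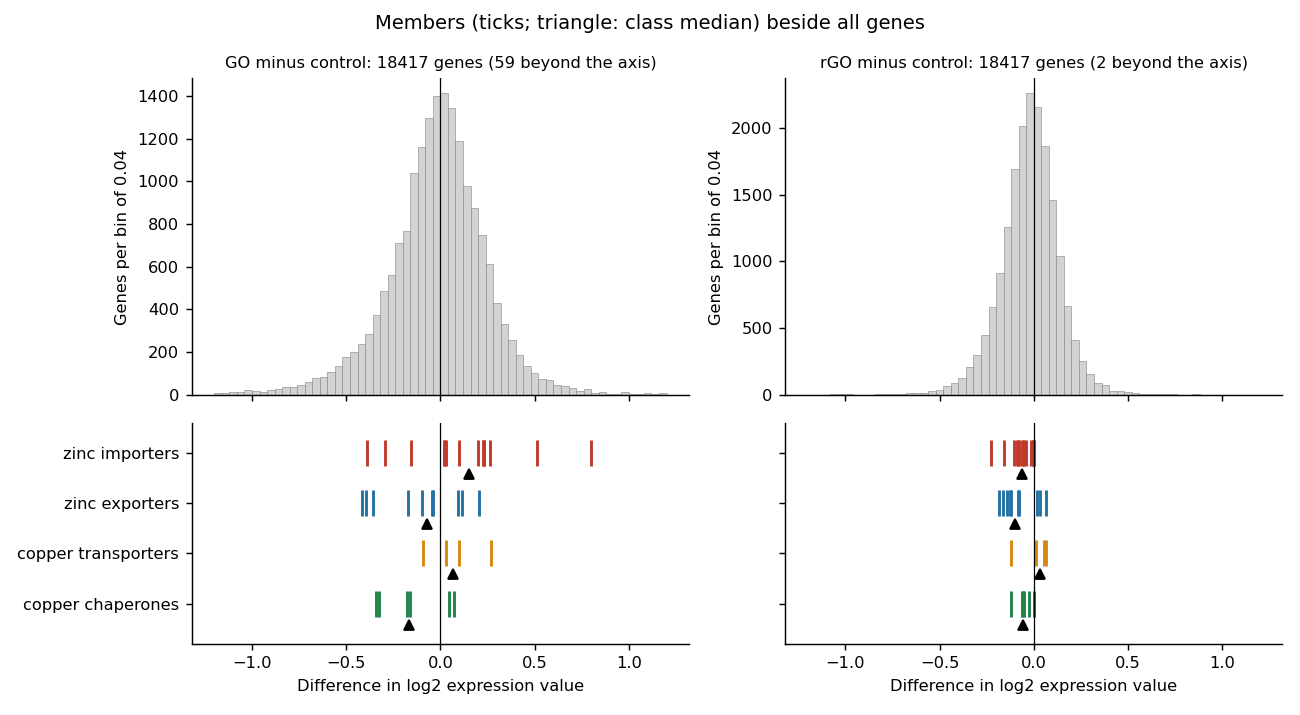
Differences in log2 expression value of all 18417 genes (grey histograms, 0.04 per bin) above those of the members (ticks by class, triangles at the class medians), for GO minus control and rGO minus control. After GO SLC39A10 at 0.80 and SLC39A4 at 0.51 are the rightmost ticks, and the other members lie between -0.42 and 0.27.

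The copper chaperones were lower or near the control after GO. COMMD1, which takes part in the trafficking of ATP7B, had 8.94 in the GO array, 9.17 in the rGO array and 9.29 in the control array (-0.34 after GO). COX11, which inserts copper into a cytochrome oxidase subunit, had 9.11 with GO, 9.43 with rGO and 9.43 in the control (-0.33 after GO). COMMD1 was lower in both exposed arrays, whereas COX11 was lower in the GO array and equal in the others to the second decimal. CCS and SCO1 stood at -0.18 and -0.16 after GO. ATOX1 stood at 0.07 and SCO2 at 0.05, both smaller than the spread per probe set. COX11 was the 1971st and COMMD1 the 1809th lowest of all genes.

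The rGO array was then set against the control array. Every member lay between -0.23 and 0.07, and 27 of the 34 were below 0. This included 13 of 14 importers (median -0.06), 7 of 10 exporters (median -0.10) and 6 of 6 copper chaperones (median -0.05), while 3 of 4 copper transporters were above 0 (median 0.03). Over all genes 54.9% were below 0, with a median of -0.02. None of the members reached 1.5-fold or 2-fold in either direction. Of all genes, 0% reached 2-fold upwards and 0.0217% downwards, and 0.076% reached 1.5-fold upwards and 0.282% downwards, so the count of 0 members says little about them.

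The signs after rGO rested on very small numbers. SLC39A7, SLC39A9, SLC39A13 and COX11 were within 0.003 of 0. A loess on level put 3 importers and 1 chaperone above 0, and centring the arrays put 0 importers above 0. SLC39A2 (-0.23) and SLC30A9 (-0.18) had the largest differences. The next were SLC30A4 and SLC39A12, both at -0.16, and SLC30A6 at -0.14. SLC39A2, SLC30A4 and SLC39A12 are under the level. SLC39A10 stood at -0.09 and SLC30A1 at -0.08 after rGO, beside 0.80 and -0.36 after GO.

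The third comparison set the GO array against the rGO array, at doses that may differ. It shares its arrays with the comparisons above, so its values add no independent reading. SLC39A10 was higher in the GO array by 0.89 (1.85-fold), the 60th highest of all genes, SLC39A4 by 0.58 (1.49-fold) and SLC31A2 by 0.39. SLC30A10 was lower in the GO array with a difference of -0.43, COX11 with -0.32 and SLC30A1 with -0.28. Of the importers 11 of 14 were above 0 (median 0.16), of the copper transporters 2 of 4 (median 0.01) and of the copper chaperones 2 of 6 (median -0.11). Of the exporters 6 of 10 were above 0 (median 0.03), but of the 6 exporters with a mean of at least 6.66 only 2 were, with a median of -0.12. Over all genes 53.1% were above 0.

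A 2-fold difference between GO and rGO was met by 0 of 34 members, where 0.201% of all genes were that much higher and 0.358% that much lower. At 1.5-fold 1 member was higher, SLC39A10, and 0 were lower, where 1.3% of all genes were higher and 2.2% lower.

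Other genes that handle zinc, copper or other metals were set beside the members. Of the 13 metal-responsive genes listed, which are metallothioneins and MTF1, 11 were measured. After GO 10 were below 0 (median -0.54), beside 51.1% of all genes, and 4 passed 2-fold downwards, beside 0.603%. After rGO 5 of the 11 were below 0, with a median of 0.00, beside 54.9% of all genes. The metallothionein MT1M had 8.13 in the GO array, 10.37 in the rGO array and 10.43 in the control array, and MT1F, MT1G and MT1X stood at -1.40, -1.22 and -1.03 after GO. The other metallothioneins measured differed less. MT2A, the one with the highest values, had 13.43 with GO, 13.62 with rGO and 13.62 in the control (-0.19 after GO). Many metallothioneins, the MT1 genes among them, are near-identical copies whose probe sets can read more than 1 member. The gene of the zinc sensor MTF1 itself had 8.72 with GO, 8.49 with rGO and 8.44 in the control.

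Further assembly factors of cytochrome oxidase were also mostly lower after GO. Of 8 measured, 7 were below 0 after GO (median -0.18), beside 51.1% of all genes, and 6 after rGO (median -0.09), beside 54.9%. COA6 was the only 1 of the 8 past 2-fold downwards after GO, beside 0.603% of all genes. COA6, which helps to deliver copper to cytochrome oxidase, had 7.99 in the GO array, 8.81 in the rGO array and 9.05 in the control array, a difference after GO of -1.06 (the 86th lowest of all genes). CMC2 had 10.64 with GO, 11.43 with rGO and 11.59 in the control. In both genes the GO array was clearly the lowest, the rGO array lay slightly below the control, and TMEM177, the next in size, stood at -0.19 after GO.

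The relatives of COMMD1 and the CCC complex, which recycles copper pumps and other cargo from endosomes, gave a median after GO of -0.05 over 11 measured genes. Of these, 7 were below 0, beside 51.1% of all genes, and 4 were above 0, up to 0.37. The 3 largest differences in size were all downwards. COMMD6 stood at -0.90, COMMD8 at -0.78 and COMMD10 at -0.55 after GO, and at -0.12, 0.15 and -0.08 after rGO. COMMD8 had 7.04 with GO, 7.96 with rGO and 7.81 in the control, so the control lay between the exposed arrays. After GO 0 of the 11 passed 2-fold downwards, beside 0.603% of all genes, and 2 passed 1.5-fold, beside 2.99%.

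Of 17 enzymes that use copper 12 were above 0 after GO, with a median of 0.21, beside 48.7% of all genes, and after rGO 8 of 17 were above 0 (median 0.00), beside 44.9%. Only 7 of the 17 had a mean at or above the level, so the other values are weakly measured. The ferroxidase ceruloplasmin, CP, which carries most copper of the plasma, had 11.61 in the GO array, 10.93 in the rGO array and 10.83 in the control array. The lysyl oxidase genes LOX and LOXL4, which crosslink collagen, stood at 0.77 and 0.66 after GO, and at 0.25 and -0.22 after rGO. In the list of metalloreductases and other metal carriers 8 of 14 were above 0 after GO, with a median of 0.05, beside 48.7% of all genes. The other 6 were below 0, down to -0.23, and 10 of the 14 had a mean at or above the level. The largest difference in this list was that of the metalloreductase STEAP2 (9.07 with GO, 8.64 with rGO and 8.57 in the control). CNNM4, a magnesium transporter, and STEAP4, under the level, both stood at 0.25.

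**Figure D4:**
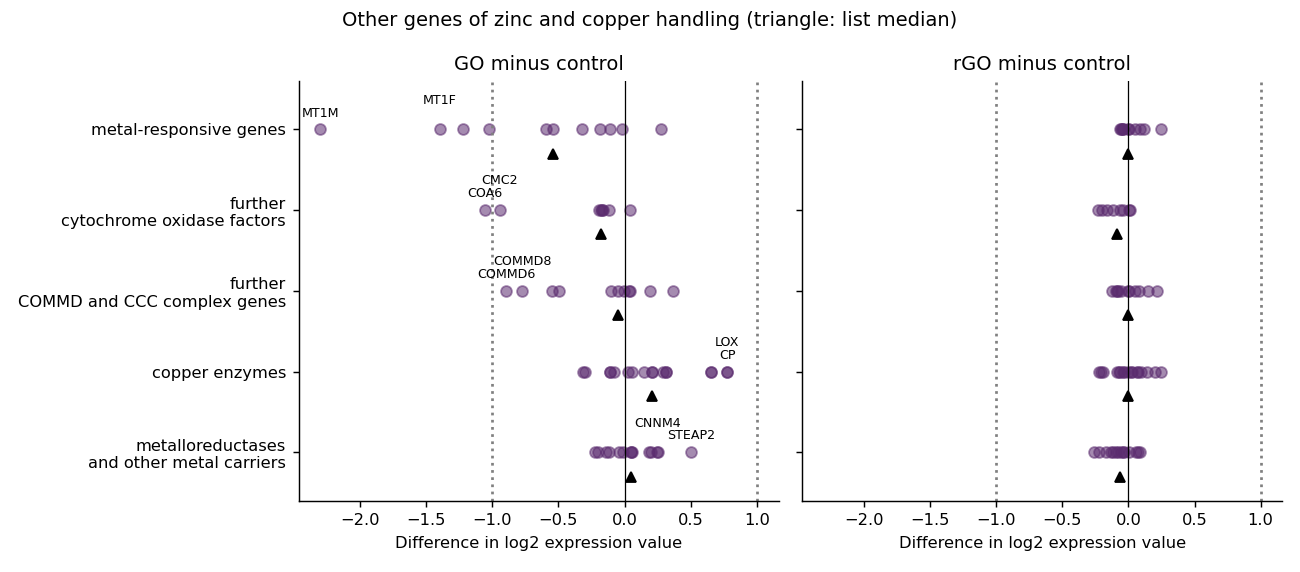
Difference in log2 expression value from the control array for 5 further lists of metal handling genes, for GO (left) and rGO (right). There is 1 point per gene, with triangles at the list medians and dotted lines at 2-fold. The last list also holds carriers of iron and magnesium. MT1M at -2.30 and COA6 at -1.06 pass 2-fold after GO, with MT1F, MT1G and MT1X; no gene of these lists passes it after rGO.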

How the data were processed

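Each of the 3 arrays (GO, rGO and control, 1 per group) was an Affymetrix array hybridised with biotin-labelled cDNA. The authors deposited expression values for 33297 probe sets, and their scale was read as log2 from their range. RMA and MAS5 appear in the submitters' processing notes with no role or version. The near-equal distributions look normalised between arrays, genes were not centred, and any further scaling is unknown. No spot-level background was used here.

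Probe sets were named through the platform annotation, which can be old. Of these, 19460 had 1 symbol, 1754 several and 12083 none listed. Only those with 1 symbol were used, and for each of 18417 genes the probe set with the highest mean was kept. All measured members entered the counts, and a mean at the 40th percentile (6.66) served as a level filter only in alternatives. Differences of log2 values were taken between arrays and counted at 2-fold and 1.5-fold without a test. The members and lists were chosen with earlier results of these data known. Every member could be named; other lists gave the 3 genes with the largest difference after GO, plus any past 2-fold. MTF1, MT2A and the marker genes CD68 and LYZ were named outside this rule, after their values were seen. The spread per probe set is the robust SD within pairs over the root of 2.

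As alternatives, level filters at the 40th and 60th percentile, class means, the 1.5-fold size, averaged probe sets, a loess (span 0.3), median centring and quantile normalization were tried. Promoter sequences came from RefSeq (GRCh38.p14). Python 3.11.15, numpy 2.4.6, pandas 2.3.3, statsmodels 0.14.6 and matplotlib 3.10.9 were used. The number of arrays limits the precision.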

Additional observations from a re-analysis of the deposited data

How the results depend on the processing

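No paired analysis was possible because each group had 1 array. Averaging the probe sets of a gene could change no member, since each had 1 probe set or identical ones. Under the 6 other alternatives in 3 comparisons, 65 of 72 class medians moved by less than the spread per probe set. The filter at the 40th percentile dropped no copper transporter or copper chaperone, so those medians could not change under it. The spread for GO minus control, 0.08, is also larger than some of the medians, such as -0.07 for the exporters. A smaller move therefore says little about the sign of such a median. The medians that moved further were mostly those of the zinc exporters under the level filters, which leave 6 of 10 genes. At both the 40th and the 60th percentile their median was -0.27 for GO minus control and -0.032 for rGO minus control. For GO minus rGO it was -0.12, with the opposite sign to the unfiltered 0.03. Smaller moves turned the sign for GO minus rGO as well. The exporter mean was -0.03, and the copper transporter median at the 60th percentile was -0.04, against 0.01 unfiltered. The mean of the copper transporters for GO minus rGO was 0.075, against a median of 0.01. At 1.5-fold 1 member was higher for GO minus control and 1 for GO minus rGO, in place of 0 at 2-fold. No member passed 2-fold under quantile normalization, median centring or loess. The level filters only drop members, so they could not have raised this count from 0. Quantile normalization, median centring and loess turned 0 member signs for GO minus control, up to 3 for rGO minus control and up to 2 for GO minus rGO, in members no larger than 0.04. SLC39A10 stood between 0.79 and 0.82 for GO minus control under the 3 scalings, and SLC30A1 between -0.37 and -0.33. Without replicates, none of these ranges covers the variation between dishes, and low signal limits the 7 members under the level.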
